A study of Mus musculus with 8 samples.

Results

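The smooth muscle of the trachea, the trachealis, contracts by means of a small set of structural proteins, and the genes of 10 of them are described here: Acta2, Actg2, Myh11, Mylk, Tagln, Cnn1, Tpm1, Tpm2, Lmod1 and Smtn. They were chosen by gene symbol as the contractile apparatus of the trachealis, and the rule names no measured value. All 10 had a row in both deposited tables, of 37282 gene symbols in all, and all 10 passed the filter on low counts that left 14901 genes for testing. RNA came from whole dissected tracheae of Mus musculus embryos at the embryonic stages E11.5 and E13.5. At each stage there were 2 libraries of the genotype labelled control and 2 of the genotype labelled WlsShhCre, called mutants here. Wls encodes the carrier that takes Wnt ligands out of the cell. Shh-driven Cre is active in the epithelium of the airway and not in the mesenchyme from which the trachealis forms. The alleles of the controls, the strain and whether a library came from 1 embryo or a pool are not stated in the labels.

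In smooth muscle, calcium bound to calmodulin switches on myosin light chain kinase, encoded by Mylk, and the phosphorylated myosin then pulls on actin filaments. The heavy chain of that myosin comes from Myh11, and the actins from Acta2 and Actg2. Tropomyosins (Tpm1, Tpm2) lie along the actin filament, calponin (Cnn1) and transgelin (Tagln) bind it, leiomodin (Lmod1) starts new filaments, and smoothelin (Smtn) is found in contractile smooth muscle. Most of these genes are switched on by serum response factor with its partner myocardin. In the embryonic trachea the trachealis lies dorsally, opposite the cartilage rings, and Acta2 is a usual marker of it. Tpm1 and Tpm2 are also used by skeletal and heart muscle, and blood vessels have smooth muscle of their own.

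Libraries held 9.9 to 18.5 M estimated counts, the mutants of E13.5 being the deepest. The targeted gene, Wls, went with the labels. Mutants differed from controls in it by -0.49 on the log2 scale at the earlier stage (adjusted p = 0.00302) and by -1.16 at the later one (1.5e-07). The female-specific RNA Xist had 1168 and 1847 CPM (counts per M counts of the library) in the E11.5 controls and 846 and 526 CPM in the mutants. At E13.5 it had 2673 and 1841 CPM in controls and 6.34 and 1224 CPM in mutants. Mutants were thus lower within each stage, though the ranges overlap across stages, and within a stage genotype and the share of female tissue cannot be told apart. E13.5 mutant replicate 1, the library with 6.34 CPM of Xist, also had the highest summed level of 14 skeletal muscle genes, at 304 CPM against 116 CPM in mutant replicate 2 and 66 and 70.4 CPM in the E13.5 controls. The 16 intestinal genes looked up summed to 35.1 and 46.1 CPM in the E13.5 mutants and to between 75.9 and 112 CPM in the other 6 libraries, and 12 of the 13 tested fell at E13.5, with a median of -3.66. Sis, Apoa4, Cdx1, Cdx2 and Guca2b had no count in both E13.5 mutants, while Muc2 had none in any library. In whole tracheae, fewer cells of a type and less RNA per cell cannot be told apart.

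Promoters are shown for 2 members: Acta2, the marker gene of the tissue, and Cnn1, the member that passed the test between genotypes at both stages. RefSeq promoters (build GRCm38.p6) were at hand for 7 of the 10 members. Each runs from 250 bases before to 50 bases after the transcription start, 5′ to 3′ on the gene's strand. The motif searched was the CArG box, the form bound by serum response factor: CC, then 6 bases of which at least 5 are A or T, then GG. It reads the same on both strands, so 1 search covered both. Capitals mark the matches. Acta2 lies at chr19:34255324-34255623, minus strand, and Cnn1 at chr9:22099003-22099302, plus strand.
Acta2: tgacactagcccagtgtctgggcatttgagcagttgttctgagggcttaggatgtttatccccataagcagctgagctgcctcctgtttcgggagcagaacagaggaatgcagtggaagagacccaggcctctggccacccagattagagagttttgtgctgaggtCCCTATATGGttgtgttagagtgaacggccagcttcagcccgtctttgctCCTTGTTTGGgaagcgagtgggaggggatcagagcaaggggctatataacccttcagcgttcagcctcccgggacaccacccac
Cnn1: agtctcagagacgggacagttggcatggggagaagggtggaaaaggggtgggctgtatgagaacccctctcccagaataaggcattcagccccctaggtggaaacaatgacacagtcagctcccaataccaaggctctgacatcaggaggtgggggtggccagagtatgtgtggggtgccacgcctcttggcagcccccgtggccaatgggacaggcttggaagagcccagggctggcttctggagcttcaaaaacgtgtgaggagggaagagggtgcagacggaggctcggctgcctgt
The Acta2 promoter held 2 matches, CCCTATATGG beginning 84 bases and CCTTGTTTGG beginning 34 bases before the start. The other 6 member promoters, Cnn1 among them, held none within this window. Such a match was found in 9.98% of all 32851 promoters, and a match with all 6 central bases A or T in 1.63% of them and in 0 of the 7. A match is only a description of letters, and a window this short leaves out introns and more distant elements.

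Measured per length of gene model, the contractile transcripts together were higher at E13.5 than at E11.5, most of all in the mutants. The deposited read densities (RPKM, which scales reads by gene length and library size) of the 10 genes summed to 357.9 and 407.7 in the E11.5 controls, and to 374.8 and 312.2 in the E11.5 mutants. At E13.5 they summed to 714.4 and 762.1 in controls and to 1242.0 and 1469.7 in mutants. At E11.5 the 2 genotypes overlapped in this sum, and at E13.5 both mutants were above both controls.

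**Figure D1:**
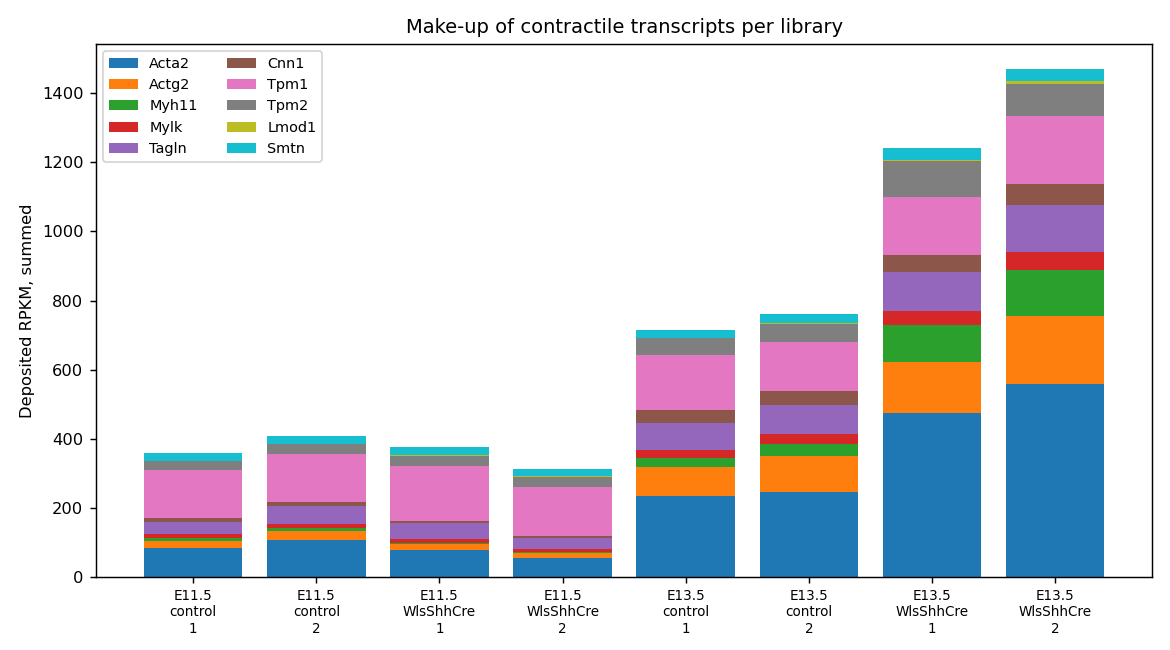
Stacked bars give the deposited RPKM of the 10 genes in each of the 8 libraries, named by stage, genotype and replicate. Tpm1 is the tallest part at E11.5 and Acta2 at E13.5, and the E13.5 mutant bars reach 1242.0 and 1469.7.

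The make-up of this sum changed with stage. Tpm1 led at E11.5, with 33.8% to 39.2% of the summed RPKM in controls and 42.5% to 45.1% in mutants, and Acta2 came second with 23.1% to 25.8% and 17.3% to 20.3%. At E13.5 Acta2 led, with 32.1% to 32.7% in controls and 38.1% in both mutants, and Tpm1 came second with 18.4% to 22.3% in controls and at least 13.3% in mutants. Myh11 had rank 9 of the 10 in both E11.5 groups, rank 7 in the E13.5 controls and rank 5 in the E13.5 mutants, where its RPKM reached 109 and 134. Lmod1 was the scarcest in every group, with an RPKM of 0.833 to 1.24 in the E11.5 controls and of 5.11 and 7.02 in the E13.5 mutants. The Actg2 RPKM per Acta2 RPKM stayed between 0.243 and 0.258 in the 4 E11.5 libraries, and was 0.359 and 0.425 in the E13.5 controls and 0.312 and 0.348 in the E13.5 mutants. Myh11 RPKM per RPKM of Myh10, a non-muscle myosin heavy chain, was 0.0539 and 0.0637 in the E11.5 controls and 0.0302 and 0.033 in the mutants. It was 0.275 and 0.363 in the E13.5 controls and 1.13 and 1.41 in the mutants. Only in the E13.5 mutants did the RPKM of Myh11 thus exceed that of Myh10. The other non-muscle heavy chains, Myh9 and Myh14, were not compared in this way. Coding sequences of the actin genes are similar, and how the authors shared reads between them is not stated in the labels. The split between Acta2, Actg2 and the striated actins is uncertain to that extent.

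At E13.5 the contractile genes were higher in mutants than in controls. In edgeR's quasi-likelihood test 7 of the 10 rose, 0 fell and 3 did not pass, where 5.97% of all genes tested rose and 5.81% fell (11.8% in all). Myh11 rose most, 3.8-fold, and Lmod1, Acta2, Tpm2, Mylk, Cnn1 and Smtn rose 1.39-fold to 2.7-fold. The median log2 fold change was 0.84 over the 10 genes and -0.002 over all genes tested. In all 10 genes both mutant libraries were above both controls, a separation that 27.3% of all genes tested showed. DESeq2 and limma-voom each called 9 higher and 0 lower, DESeq2 all but Tagln and limma-voom all but Tpm1. Over all genes DESeq2 called 587 higher and 644 lower, limma-voom 858 and 886, and edgeR 889 and 866.

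Among the filament and motor genes, Myh11 (gene ID 17880, chromosome 16) had 175 and 245 CPM in controls of E13.5 and 721 and 873 CPM in mutants. Its groups were far apart, with a difference of 1.93 on the log2 scale (SE 0.21, adjusted p = 0.00672). Acta2 (gene ID 11475, chromosome 19), the smooth muscle alpha-actin, stood at 412 and 433 CPM in controls and at 836 and 977 CPM in mutants, or 422 ± 15.2 against 906 ± 99.6 CPM (SD, n = 2). The difference was 1.10 on the log2 scale (SE 0.21, adjusted p = 0.0352). Actg2 (gene ID 11468, chromosome 6), the gamma-actin typical of visceral smooth muscle, stood at 109 and 136 CPM in controls and at 193 and 251 CPM in mutants. Its libraries did not overlap, but its difference of 0.86 missed the threshold in edgeR (SE 0.21, 95% interval 0.32 to 1.40, adjusted p = 0.0704). It passed in DESeq2 (0.00721) and limma-voom (0.00419).

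Mylk (gene ID 107589, chromosome 16), the kinase that switches on the myosin, had 182 and 229 CPM in controls and 309 and 420 CPM in mutants. It passed by the narrowest margin of all (0.83, SE 0.18, adjusted p = 0.04996), and the 2 mutants differed from each other more than the 2 controls did. Counts per gene cannot separate this kinase's smooth muscle form from its other products.

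**Figure D2:**
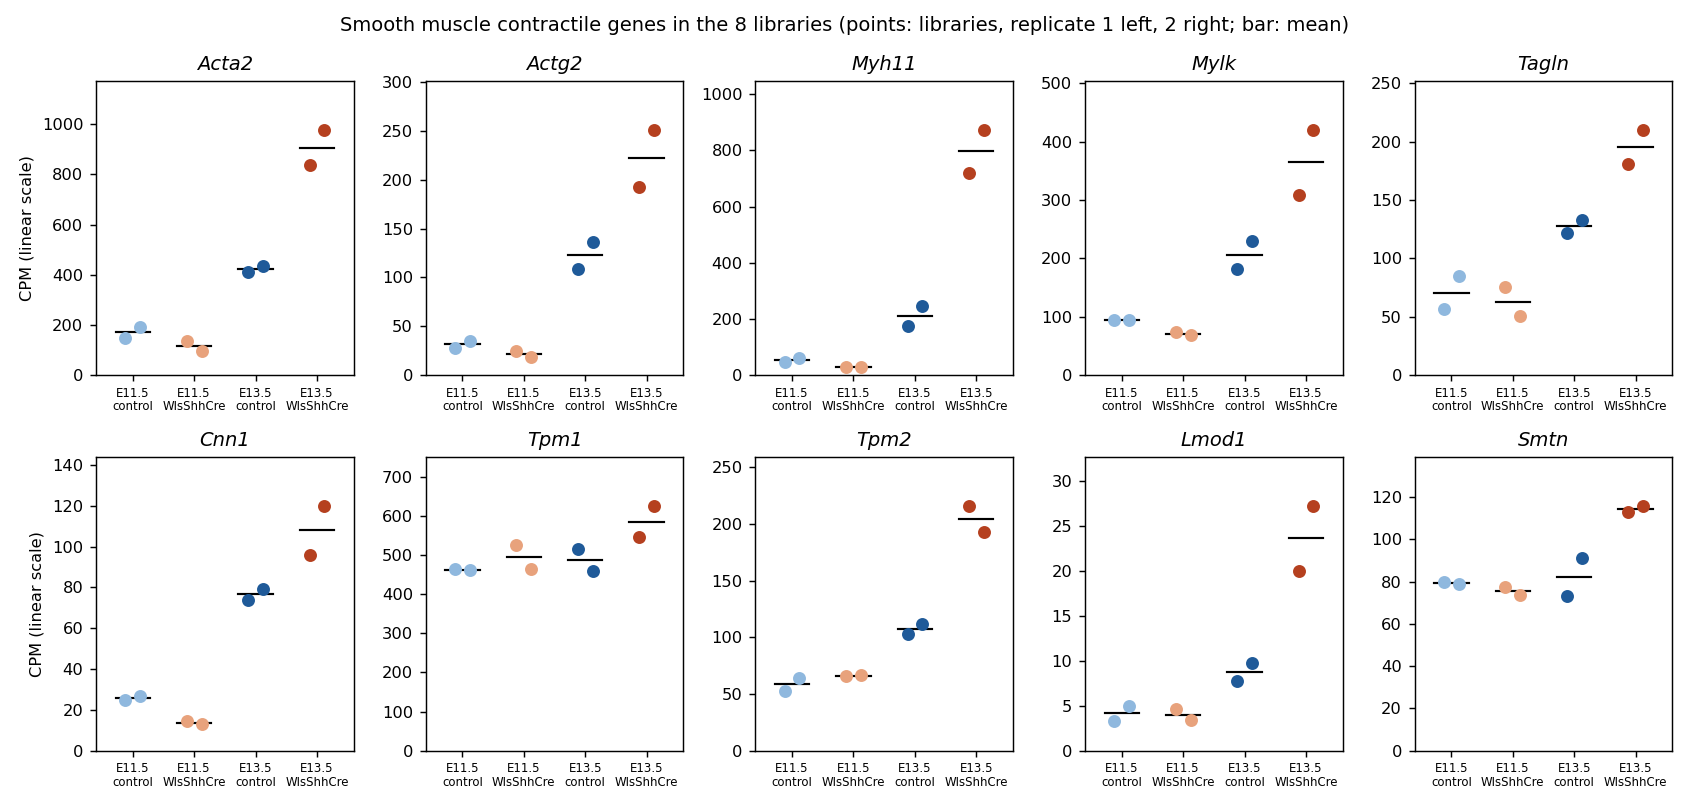
CPM of each gene on a linear axis that starts at 0, by group, with 1 point per library and a bar at the mean of 2 libraries. In all 10 panels both E13.5 mutant points lie above both E13.5 control points; for Tpm1 and Smtn the other 3 groups lie close together.

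Of the actin-binding genes, Cnn1 (gene ID 12797, chromosome 9) had 73.8 and 79.3 CPM in controls and 95.9 and 120 CPM in mutants, a modest rise of 0.50 (SE 0.10, adjusted p = 0.0063). Tagln (gene ID 21345, chromosome 9) had 122 and 133 CPM in controls and 181 and 210 CPM in mutants. The groups were separate here as well, but with an SE of 0.27 the difference of 0.62 did not pass in edgeR (95% interval -0.10 to 1.33, adjusted p = 0.27). It passed in limma-voom (0.0457) and not in DESeq2 (0.261). Reads of this gene may include some of Pcsk7, which overlaps it in RefSeq and had a mean of 368 counts per library, since these libraries do not mark the strand. Smtn (gene ID 29856, chromosome 11) had 73.4 and 91.2 CPM in controls and 113 and 116 CPM in mutants (0.47, SE 0.08, adjusted p = 0.0024). Lmod1 (gene ID 93689, chromosome 1), the filament nucleator, was the scarcest, with 82 and 104 counts, or 7.68 and 9.75 CPM, in controls and 372 and 464 counts, or 20 and 27.2 CPM, in mutants. Its rise of 1.43 (SE 0.21, adjusted p = 8.2e-04) was second to that of Myh11.

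The tropomyosins differed from each other. Tpm2 (gene ID 22004, chromosome 4) had 103 and 112 CPM in controls and 216 and 193 CPM in mutants, with a log2 fold change of 0.93 (SE 0.09, adjusted p = 5.0e-05). Tpm1 (gene ID 22003, chromosome 9), the most abundant of the 10 by CPM at E11.5, had 517 and 459 CPM in controls and 546 and 627 CPM in mutants. Its difference was the smallest of the set and did not pass in edgeR (0.27, SE 0.08, 95% interval 0.08 to 0.45, adjusted p = 0.065). It passed in DESeq2 (0.017) and not in limma-voom (0.0747). Tpm2 was the 1 member that was higher in mutant replicate 1 than in mutant replicate 2, and replicate 1 is the library with more skeletal muscle transcripts. Without that library the Tpm2 difference was 0.85. Mutant replicate 2 also had a higher skeletal muscle sum than the controls (116 against 66 and 70.4 CPM). The part of skeletal muscle in the Tpm2 values was not tested.

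**Figure D3:**
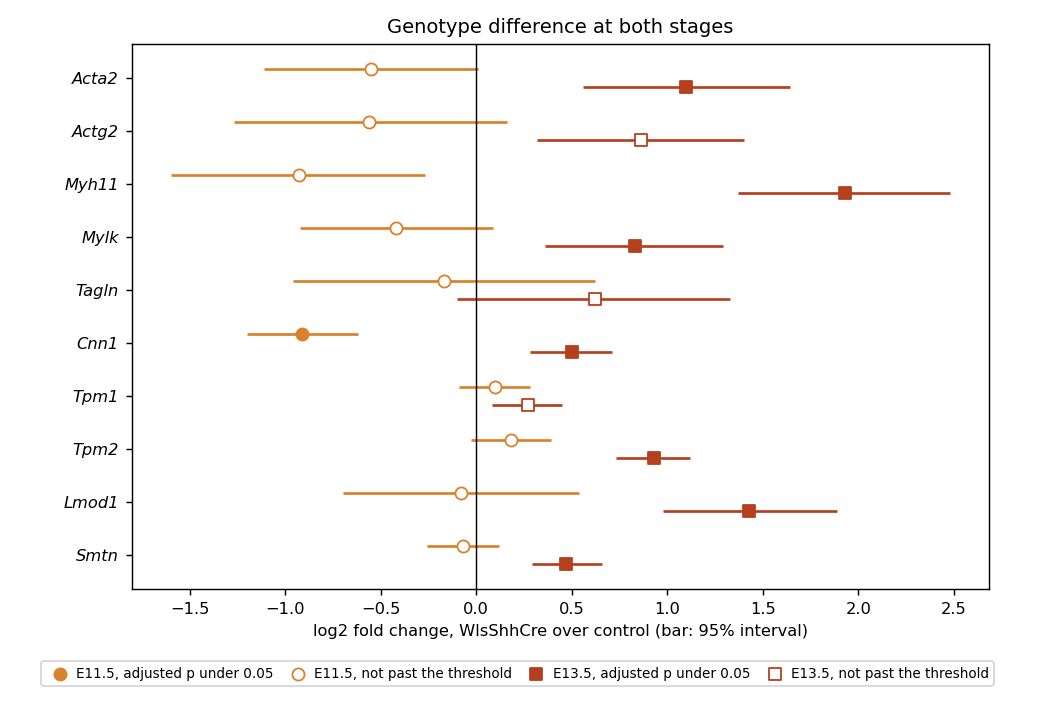
Log2 fold change of mutants over controls for each gene at E11.5 (circles) and at E13.5 (squares), with 95% intervals from the edgeR fit; filled symbols have an adjusted p under 0.05. At E13.5 every symbol lies above 0, from 0.27 for Tpm1 to 1.93 for Myh11, and at E11.5 only the Cnn1 circle is filled.

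Which of these calls held depended on the libraries used, and for Acta2 and Mylk also on the processing. Myh11, Tpm2, Lmod1 and Smtn passed whichever of the 8 libraries was left out, with adjusted p up to 0.0328, 0.00143, 0.0157 and 0.0209. Myh11 did not pass in a fit of the 4 E13.5 libraries by themselves (adjusted p = 0.0691), nor did Cnn1 (0.0694) or Mylk (0.228). In that fit Acta2 (4.1e-04), Tagln (0.00497), Lmod1 (0.00388), Tpm2 (1.2e-04) and Smtn (0.0313) passed. Acta2 lost its call without either E13.5 control (adjusted p = 0.179 and 0.138) and without either E13.5 mutant (0.091 and 0.112), with differences between 0.99 and 1.21. Cnn1 lost it without control replicate 1 (0.0727), and Mylk kept it without 2 of the 8 libraries, the E13.5 mutants. Leaving out E13.5 control replicate 1 leaves 1 library in that group. Among the 7 called genes the differences were then 1.71 for Myh11, 1.27 for Lmod1, 1.07 for Acta2 and 0.87 for Tpm2. They were 0.67 for Mylk, 0.45 for Cnn1 and 0.33 for Smtn. Each was still above 0 and smaller than with all 8 libraries.

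**Figure D4:**
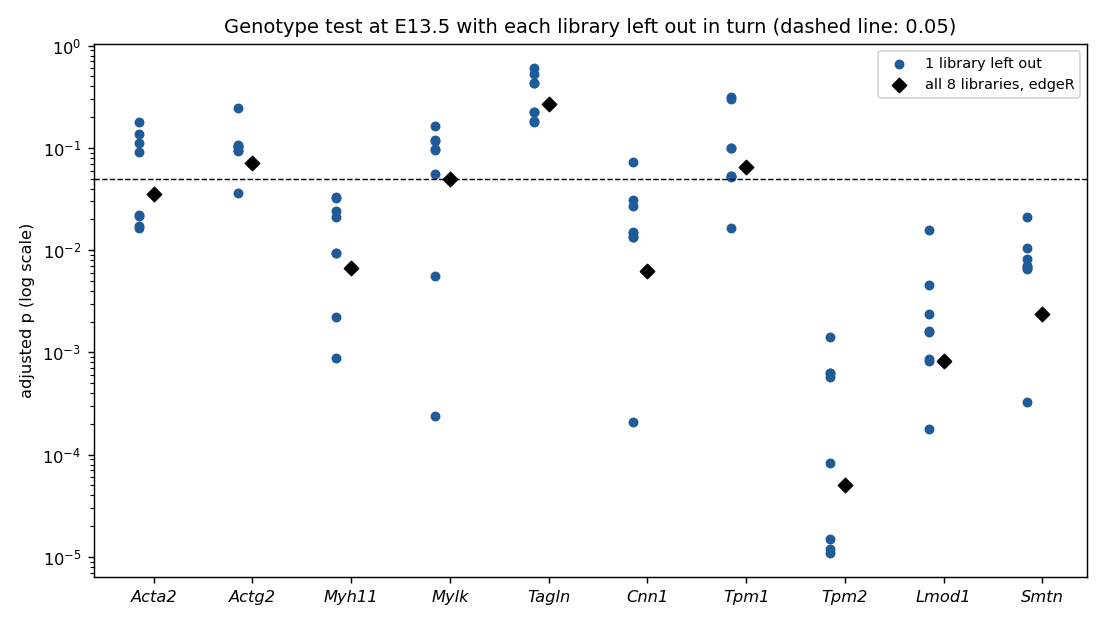
Adjusted p of the E13.5 genotype test on a log axis, for all 8 libraries (diamond) and with each library left out in turn (circles); the dashed line is the threshold of 0.05. All points of Myh11, Tpm2, Lmod1 and Smtn lie below the line, and those of Acta2 and Mylk lie on both sides.

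At E11.5 the order of the genotypes was the other way round for most of the genes, but 1 passed the test. Cnn1 stood at 24.6 and 26.6 CPM in controls and at 14.3 and 13.1 CPM in mutants, and fell by 0.91 on the log2 scale (SE 0.13, adjusted p = 0.0119). It was the 1 gene of 10 called lower, where 0.289% of all genes tested were lower, 0.0738% higher and 0.362% either, and the call was lost without any 1 of the 4 libraries of this stage (adjusted p from 0.084 to 0.125) and in limma-voom (0.184). The median over the 10 genes was -0.29, against 0.000 over all genes tested.

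Myh11 had a difference as large as that of Cnn1 at this stage, with 46.5 and 58.8 CPM in controls and 28 and 27.2 CPM in mutants. At -0.93 (SE 0.25, 95% interval -1.60 to -0.27) its adjusted p was 0.444 in edgeR on all 8 libraries, 0.329 in limma-voom and 0.122 to 0.77 with a library left out. It was 0.0142 in DESeq2 and 7.3e-04 in a fit of the E11.5 libraries by themselves. Acta2 had 149 and 191 CPM in controls and 136 and 97.2 CPM in mutants (-0.55, SE 0.21, adjusted p = 0.682). Actg2 had 27.8 and 35.1 CPM against 24.5 and 18.5 CPM (-0.56, adjusted p = 0.782), and Mylk 94.4 and 94.7 CPM against 73.1 and 68.8 CPM (-0.42, adjusted p = 0.767, with 1 in DESeq2, 0.692 in limma-voom and 0.00843 with E11.5 fitted by itself). In these genes, Cnn1 and Smtn, 6 in all, both mutants were below both controls, as in 17.9% of all genes tested. Smtn, at 79.7 and 79 CPM against 77.6 and 73.8 CPM, differed by only -0.07 (95% interval -0.26 to 0.12).

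The remaining 4 did not share that order. Tagln (56.1 and 84.4 CPM in controls, 75 and 50.4 CPM in mutants) and Lmod1 (3.32 and 4.98 against 4.58 and 3.35 CPM) overlapped between genotypes, and the sign of both differences depended on single libraries. The tropomyosins lay slightly higher in mutants. Tpm1 had 465 and 462 CPM in controls and 526 and 466 CPM in mutants (0.10, adjusted p = 0.914), and Tpm2 had 52.4 and 64.4 against 65.9 and 66.5 CPM (0.18, adjusted p = 0.768). Such a separation upwards was seen in 18.1% of all genes tested.

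The signed difference, mutants minus controls, was higher at E13.5 than at E11.5 for 5 of the 10 genes in the test of the stage by genotype interaction, where 1.63% of all genes tested were called in that direction, 1.7% in the other and 3.34% in either. The difference between the log2 fold changes was 2.86 for Myh11 (SE 0.33, adjusted p = 0.0213), 1.51 for Lmod1 (SE 0.35, adjusted p = 0.0385), 1.41 for Cnn1 (SE 0.17, adjusted p = 8.3e-04), 0.75 for Tpm2 (SE 0.13, adjusted p = 0.00988) and 0.54 for Smtn (SE 0.12, adjusted p = 0.0266). Cnn1 is the 1 gene called lower at the earlier stage and higher at the later one, and its interaction passed whichever library was left out. Acta2 at 1.65 (adjusted p = 0.0741), Actg2 at 1.42 (0.141) and Mylk at 1.24 (0.104) did not pass in the robust edgeR fit. They passed in DESeq2 and limma-voom. In the edgeR fit that was not robust they passed too (adjusted p = 0.00344, 0.0168 and 0.0105). Lmod1 and Smtn lost their calls in limma-voom (adjusted p = 0.162 and 0.0588) and in the edgeR fit that was not robust (0.0595 and 0.0507). Tagln at 0.79 (95% interval -0.28 to 1.86) and Tpm1 at 0.17 (95% interval -0.09 to 0.43) did not pass in any of these fits. Without E11.5 mutant replicate 1 or 2 the number called fell from 5 to 1, and without E11.5 control replicate 2 or E13.5 control replicate 1 it fell to 3.

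From E11.5 to E13.5 the contractile genes rose in both genotypes, but not all alike. In controls 7 of 10 rose and 0 fell, where 21.4% of all genes tested rose, 21% fell and 42.4% did either. In 8 of 10 both later libraries were above both earlier ones, as in 36.9% of all genes tested; 36.3% showed the reverse. Myh11 rose by 1.99 (SE 0.23, adjusted p = 0.00227), Actg2 by 1.96 (SE 0.24, adjusted p = 0.00249), Cnn1 by 1.58 (SE 0.11, adjusted p = 1.2e-06) and Acta2 by 1.31 (SE 0.21, adjusted p = 0.00715), with Mylk at 1.12, Lmod1 at 1.06 and Tpm2 at 0.88. Lmod1 had an adjusted p of 0.0525 without E11.5 control replicate 1. Tagln at 0.86 did not pass (adjusted p = 0.0746, but 0.00561 in limma-voom). Tpm1 at 0.07 (95% interval -0.11 to 0.26) and Smtn at 0.05 (95% interval -0.14 to 0.24) overlapped between the stages.

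In mutants all 10 rose in edgeR, where 23.9% of all genes tested did (24.5% fell and 48.5% did either), and the steps were larger. Myh11 rose 28.9-fold (log2 4.85, SE 0.25, adjusted p = 1.1e-04), Actg2 10.4-fold, Cnn1 7.93-fold, Acta2 7.78-fold, Lmod1 5.97-fold and Mylk 5.14-fold. Tpm1 rose least (0.24, SE 0.08, adjusted p = 0.0324), and lost its call without either E11.5 control (0.0508 and 0.0502) and without replicate 2 of either mutant group (0.231 and 0.22). The 2 genotype series share no library, but each stage effect rests on tables whose gene models can differ. The model lengths implied by count and RPKM were the same in both tables for 8 of the members. They were 2207 and 2098 bases for Tpm2, and 7809 and 8037 bases for Mylk, so the stage values of these genes can include that.

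By group, 5 genes (Acta2, Actg2, Myh11, Cnn1 and Mylk) had the same order with no overlap between neighbours: E11.5 mutants lowest, then E11.5 controls, E13.5 controls and E13.5 mutants. Tpm2 was also fully separated, with the E11.5 groups exchanged. The share of all genes tested with such a full separation was not counted. Within each group most of the 10 genes were higher in the same replicate, and the share over all genes tested was not counted. In the E13.5 controls and in the E13.5 mutants 9 of 10 were higher in replicate 2, by a median log2 ratio of 0.22 and 0.25, and in the E11.5 mutants 9 of 10 were higher in replicate 1. In the E11.5 controls 8 of 10 were higher in replicate 2, by a median of 0.32. Over the 8 libraries each gene's log2 CPM was correlated with the mean of the set, which includes that gene. The r was 0.89 to 0.99, apart from Tpm1 at 0.75. Between single members the lowest r was 0.55, for Tpm1 and Cnn1. These values describe 4 groups of 2 libraries and are no test.

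Other genes of the contractile cytoskeleton changed less evenly at E13.5. Of 12 further cytoskeletal genes 6 rose, 1 fell and 5 did not pass, with a median of 0.30. The actin-bundling adaptor Synpo2 rose by 1.11 (SE 0.13, adjusted p = 7.4e-04), caldesmon (Cald1), which restrains actomyosin, by 0.74, filamin (Flna) by 0.41 and the essential myosin light chain Myl6 by 0.35. The LIM-domain gene Csrp2 fell by 0.67 (SE 0.11, adjusted p = 0.00303). Desmin (Des), the intermediate filament protein of muscle, stood at 77.6 and 67 CPM in controls and at 86.3 and 72.1 CPM in mutants (0.13, adjusted p = 0.557). The regulatory light chain Myl9 stood at 0.41 (adjusted p = 0.122).

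Of 16 genes that control the apparatus 8 rose and 8 did not pass. Chrm2, a muscarinic acetylcholine receptor through which nerves act on airway muscle, had 1.31 and 1.12 CPM in controls and 6.45 and 8.95 CPM in mutants (2.65, SE 0.32, adjusted p = 2.4e-04). It had no count in any E11.5 library. Chrm3, the receptor that triggers contraction, rose by 1.04, Myocd by 1.71 and Ppp1r12b, a subunit of the phosphatase that switches myosin off, by 0.78. At E11.5 the medians of these 12 cytoskeletal and 16 control genes were -0.07 and -0.02, and Myocd stood at -0.57 (adjusted p = 0.463).

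The non-muscle relatives of these genes did not share the rise as a group. Of 11 such genes 3 rose at E13.5 (Cnn2 by 0.57, Tpm4 by 0.22 and Myh9 by 0.21), 0 fell, and the median was -0.01. Beta-actin (Actb) had 1235 and 1167 CPM in controls and 1169 and 1268 CPM in mutants (0.02, 95% interval -0.11 to 0.15), and Myh10 had 744 and 792 CPM against 747 and 726 CPM. Of 14 striated relatives tested 2 rose, Myh4 and Mylk4, and 1 fell, Smtnl2. Skeletal alpha-actin (Acta1) had 27.9 and 23.3 CPM in controls and 76.8 and 35.5 CPM in mutants, and cardiac alpha-actin (Actc1) 433 and 246 against 332 and 137 CPM.

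**Figure D5:**
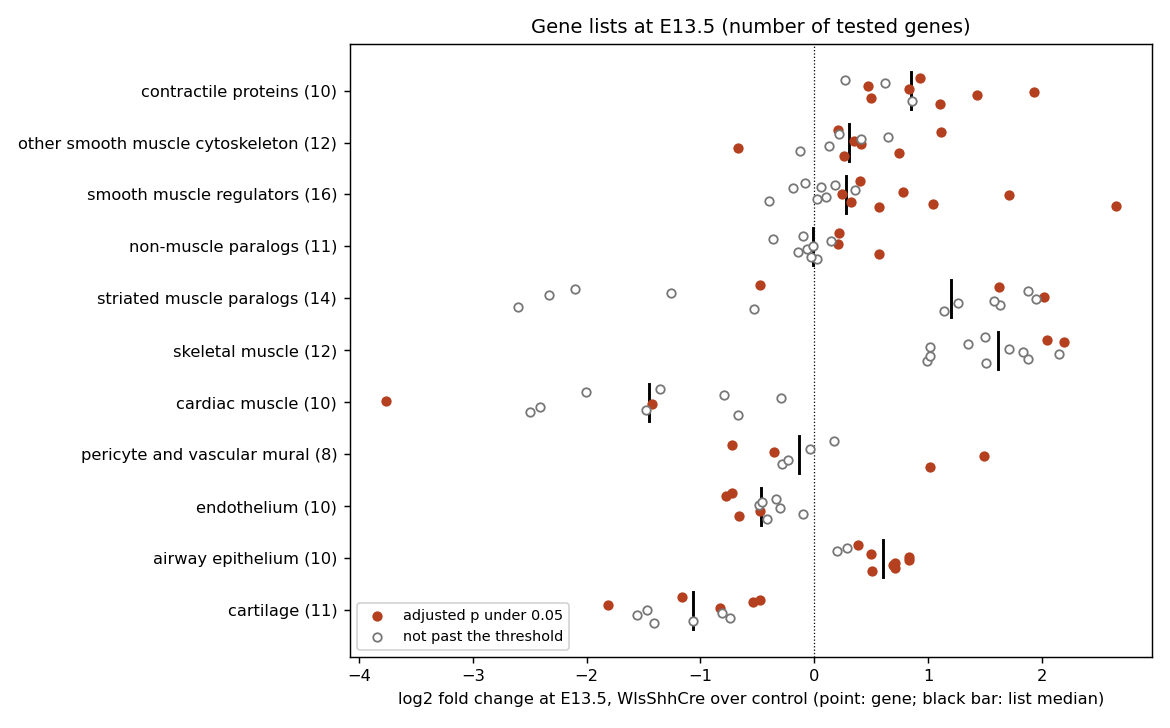
Log2 fold change of mutants over controls at E13.5 for every tested gene of each list (points) with the list's median (black bar); filled points have an adjusted p under 0.05. The contractile proteins have a median of 0.84, the non-muscle relatives one of -0.01, skeletal muscle genes one of 1.61 and cardiac muscle genes one of -1.45.

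Other cell types differed between the same E13.5 libraries, and their part in the values above was not tested. The 12 skeletal muscle genes tested all lay above 0 (median 1.61, 2 called), and the summed level of all 14 listed was 66 to 70.4 CPM in controls and 116 to 304 CPM in mutants. The 10 cardiac genes all lay below 0 (median -1.45, 2 called), with sums of 395 to 879 CPM in controls and 118 to 306 CPM in mutants. Of 10 airway epithelial genes 8 rose, with sums of 838 to 869 CPM against 1246 to 1291 CPM, and of 11 cartilage genes tested 5 fell, with sums over 13 listed genes of 1454 to 1501 CPM against 548 to 897 CPM. Of 10 endothelial genes 4 fell, with sums of 534 to 604 CPM against 382 to 430 CPM. Of 8 genes of pericytes and vascular mural cells, which also express smooth muscle actin, 2 rose (Kcnj8 by 1.49 and Abcc9 by 1.02) and 2 fell (Pdgfrb by 0.72 and Mcam by 0.35). Their sums were 632 to 740 CPM in controls and 594 to 657 CPM in mutants. The 9 immune and erythroid genes all lay below 0 (median -0.81), with sums of 1341 to 1865 CPM against 893 to 920 CPM. Of 10 neuronal and glial genes 2 rose (Ret by 0.76 and Foxd3 by 0.70), with sums of 263 to 294 CPM against 251 to 294 CPM. At E11.5 the mural sums were 903 to 1041 CPM in controls and 875 to 982 CPM in mutants, and the cartilage sums were 836 to 937 CPM and 620 to 626 CPM. The neuronal and glial genes all lay above 0 at E11.5 (median 0.59, 1 called, Dcx), with sums of 169 to 178 CPM in controls and 216 to 287 CPM in mutants. Markers of skeletal, cardiac, epithelial, endothelial and mural cells were detected in every group.

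The 8 genes outside the set whose log2 CPM followed the mean of the 10 most closely over the 8 libraries were Neurl1b (r = 0.994), Parva (0.992), Iqgap1 (0.992), Itpr1 (0.992), Reep3 (0.991), Tgfb1i1 (0.991), Coq10a (0.991) and Pbxip1 (0.989). Tgfb1i1, for example, had 37 and 43.1 CPM in the E11.5 controls, 37.7 and 31.8 CPM in the E11.5 mutants, 63.1 and 58.6 CPM in the E13.5 controls and 82.6 and 109 CPM in the E13.5 mutants. These 8 points fall into 4 groups, so the r values describe mainly the order of the groups and not the size of the change. At E13.5 the log2 fold changes of the 8 genes ran from 0.18 for Coq10a to 0.77 for Neurl1b, with Tgfb1i1 at 0.65. The median of the 10 contractile genes was 0.84. Itpr1 is also among the control genes described above.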

How the data were processed

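The members, gene lists and tests were chosen with earlier results of these data known. Libraries were made from total RNA with the Nextera XT kit, per the labels' protocols, which does not mark strand. The deposited raw counts are estimated counts by the authors, since 76.3% to 82.6% of values above 0 were not whole; the deposited read densities behave as RPKM, since they follow count over gene length and library total. The submitters' processing notes list Cufflinks 2.0.2, TopHat2 2.0.8, Bowtie2 2.1.0, DESeq and the build mm9, without roles; the counting tool and annotation are not stated. Entries without a gene (0.000985% to 0.0253% of counts) were left out, and counts were summed per symbol. The design had assumed counts, so the estimated counts were rounded before the fits. edgeR 4.0.16 (R 4.3.3) was run with TMM factors (0.98 to 1.02), filterByExpr and a robust quasi-likelihood fit of 4 group means to all 8 libraries (4 residual degrees of freedom). P-values were adjusted by Benjamini-Hochberg over 14901 genes, with calls at an adjusted p under 0.05. "Rose" and "fell" mean a call. The labels do not say whether replicates were separate embryos, so p-values measure only the spread between these libraries; replicates differed by more than sampling noise (chi-square per degree of freedom 3.38 to 8.57). CPM used TMM-scaled totals. Alternatives were DESeq2 1.42.0, limma-voom (limma 3.58.1), other scalings, no filter, a fit that was not robust, each stage alone, a replicate block, and each library left out. Named from the other lists were up to 4 genes per direction with the largest changes at E13.5; Actb, Myh10, Acta1, Actc1, Des, Dcx and Myl9 were named after their values were seen.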

Additional observations from a re-analysis of the deposited data

Results flagged for a closer look

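For 5 contractile genes the genotype difference at E13.5 differed from that at E11.5 in the interaction test of the edgeR fit. The difference between the log2 fold changes was 2.86 for Myh11, 1.51 for Lmod1, 1.41 for Cnn1, 0.75 for Tpm2 and 0.54 for Smtn, each with more in mutants at the later stage. Lmod1 and Smtn did not pass this test in limma-voom (adjusted p = 0.162 and 0.0588) or in the edgeR fit that was not robust (0.0595 and 0.0507). With E11.5 mutant replicate 1 or 2 left out, which leaves 1 library in that group, only Cnn1 kept its call. The difference was then 2.88 and 2.84 for Myh11, and 0.74 and 0.76 for Tpm2. Groups of 2 libraries are too small to tell which library is outlying.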

How the results depend on the processing

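All differences of the 10 genes kept their sign at E13.5 under the 17 alternatives. The count of 7 called there was 9 with DESeq2 and limma-voom and 5 on the 4 libraries of the stage. Over all genes the 1755 calls became 1231, 1744 and 1523 in these 3 fits. With DESeq2-type size factors, library totals only and no filter, 6 members were called each time, and 1777, 1753 and 1906 genes. Mylk lost its call in each (adjusted p = 0.0534, 0.0553 and 0.0885). With no filter Acta2 also lost its call (0.0548) and Tpm1 gained one (0.0441). The fit that was not robust called 8 members and 1715 genes, and the replicate block 7 and 1827. With both E13.5 mutants thinned to the depth of the controls, 7 members and 1677 genes were called. This alternative was added after seeing the data. Leaving out each library gave 4 to 8 members and 934 to 1770 genes. At E11.5 the 1 member called became 2 with DESeq2, 0 with limma-voom, 3 with the replicate block, 3 with E11.5 fitted by itself, and 0 to 1 with a library left out. The 54 genes called there became 90 with DESeq2, 29 with limma-voom, 92 with no filter, 90 with the replicate block, 120 with E11.5 fitted by itself, and 20 to 100 with a library left out. For the interaction the 5 members became 8 with DESeq2, and 1 to 6 with a library left out; the 497 genes became 279 to 675. Signs turned only where the difference was small: with a library left out the E11.5 values ranged from -0.48 to 0.15 for Tagln and -0.34 to 0.24 for Lmod1, and the stage values in controls from -0.02 to 0.15 for Tpm1 and -0.12 to 0.2 for Smtn. The cause of these changes was not tested. Same-numbered libraries of a stage hardly deviated together (correlation 0.045 at E11.5 and 0.044 at E13.5), so the numbers were not taken as pairs; with the replicate block Acta2 at E13.5 had an adjusted p of 0.122, and Actg2 one of 0.00508. Lmod1 had the lowest counts of the 10 (36 to 58 per library at E11.5).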
